A study of Mus musculus with 8 samples.

Results

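Replication-dependent core histone genes encode the H2A, H2B, H3 and H4 proteins that package newly copied DNA. Here they are the genes whose symbols begin with Hist1h, Hist2h, Hist3h or Hist4h followed by 2a, 2b, 3 or 4, which gave 64 of the 38406 symbols in the deposited table. Linker histone H1 genes and replication-independent variants such as H3f3a carry other symbols and were not members. One member, Hist3h2bb-ps, a pseudogene by its symbol, had a hyphen in its symbol and damaged columns, and all its values were 0. The other 63 comprised 20 H2A, 18 H2B, 12 H3 and 13 H4 genes. Of these, 25 had a mean of at least 1 FPKM (fragments scaled to transcript length and library total) over all libraries. The GENCODE M21 annotation lists Hist1h2aj and Hist1h2al, counted here as H2A genes and below 1 FPKM, as pseudogenes.

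The mice were of the outbred CF-1 stock, and embryos were injected early in the 1-cell stage and collected late in the 2-cell stage. They received either a scrambled control morpholino (Scr-MO) or a morpholino aimed, by the labels, at the Med13 transcription start site (Med13-MO). Morpholinos are antisense oligomers that block translation or splicing of a target RNA. Each group had 4 collections, and each library pooled 40 embryos. No other genotype, agent or uninjected group entered the comparison, and all libraries came from injected embryos. MED13 belongs to the kinase module of Mediator, and the title of the series places the comparison in zygotic genome activation.

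Core histone genes are present in many near-identical copies, grouped in clusters, and their RNA is made mainly in S phase. The mRNA ends in a short stem-loop in place of a poly(A) tail. The stem-loop-binding protein SLBP and the U7 snRNP direct the cut behind the stem-loop, and SLBP then stays on the mRNA for export and translation. In mice, SLBP accumulates as oocytes mature, and stored histone mRNA and protein supply the first embryonic S phases.

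The member transcripts show the feature for which the family is known. All 69 transcript rows of the 63 members matched GENCODE M21 (GRCm38), and their genes lay on chromosomes 13 (50 genes), 3 (10), 11 (2) and 6 (1). The histone stem-loop was found in 41 of the 69 transcripts, from 40 genes, against 111 of 141767 annotated transcripts (0.0783%). A missing stem-loop says only that the annotated transcript does not hold it. The following stretches are 5′ to 3′ on the transcript and written as DNA. They show the family's shared ending in members of each class at 1 FPKM or more, and capitals mark the stem-loop.
Hist1h4d: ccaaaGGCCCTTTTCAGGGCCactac
Hist1h4i: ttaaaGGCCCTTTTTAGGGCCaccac
Hist1h2bk: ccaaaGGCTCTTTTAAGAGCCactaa
Hist1h3g: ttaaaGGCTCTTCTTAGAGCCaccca
Hist1h2ap: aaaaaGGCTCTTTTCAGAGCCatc
Hist2h2ac: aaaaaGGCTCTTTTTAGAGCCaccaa
The stem of the H4 genes differed from that of the other classes. The form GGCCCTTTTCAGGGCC stood in 7 H4 genes and in no member of another class, whereas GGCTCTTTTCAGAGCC stood in 10 H2A, 6 H2B and 5 H3 genes. Among the 25 genes at 1 FPKM or more, 14 had an annotated stem-loop. It was missing from the annotated transcripts of Hist1h2bm, Hist1h2bl and Hist1h2aa, which rank 2, 3 and 4 by mean FPKM. In 19 of the 69 transcripts the annotation ran more than 100 bases past it, as in Hist1h4d (chr13:23581598-23582735, plus strand, GRCm38), whose model of 1138 bases goes on for 770 bases. FPKM divides by the transcript length used in counting, so a length longer than the RNA gives a lower value for the same number of fragments. For Hist1h4d the length used was not the annotated one, so a lowered value cannot be inferred from its long model.

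Promoters are shown for the most abundant H4 and H2A genes and for Hist1h2bl, the member with the largest difference between the groups. Each holds the stretch just before the annotated start, at the coordinates given, on the gene's own strand (RefSeq, GRCm38.p6), and capitals mark the TATA box (TATAAA), the CCAAT box and the octamer (ATTTGCAT) on either strand.
Hist1h4d, chr13:23581318-23581567, plus strand: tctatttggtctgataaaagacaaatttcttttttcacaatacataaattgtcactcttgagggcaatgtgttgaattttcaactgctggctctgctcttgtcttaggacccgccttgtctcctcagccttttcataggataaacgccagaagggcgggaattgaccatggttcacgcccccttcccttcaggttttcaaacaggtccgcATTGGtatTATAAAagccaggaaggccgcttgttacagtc
Hist1h2aa, chr13:23934187-23934436, plus strand: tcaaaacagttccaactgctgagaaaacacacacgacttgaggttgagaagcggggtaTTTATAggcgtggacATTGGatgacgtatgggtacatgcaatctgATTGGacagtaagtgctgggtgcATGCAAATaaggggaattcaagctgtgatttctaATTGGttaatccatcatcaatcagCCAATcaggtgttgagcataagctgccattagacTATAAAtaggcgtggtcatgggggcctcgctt
Hist1h2bl, chr13:21716184-21716433, minus strand: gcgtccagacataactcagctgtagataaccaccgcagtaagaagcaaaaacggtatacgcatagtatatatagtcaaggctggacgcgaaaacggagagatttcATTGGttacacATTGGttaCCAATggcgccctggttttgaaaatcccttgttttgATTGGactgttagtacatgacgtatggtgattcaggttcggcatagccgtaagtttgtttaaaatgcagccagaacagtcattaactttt
Promoters were found for 55 of the 63 members. Of these, 25 (45.5%) held TATAAA, against 12.4% of all 32851 promoters of the same length. CCAAT stood in 44 (80%), against 33.8% of all promoters. The octamer ATTTGCAT, the motif read by POU2F1, stood in 13 (23.6%), against 1.6%. By class it was found in 7 of 17 H2A and 6 of 16 H2B promoters and in 0 of 10 H3 and 0 of 12 H4 promoters. Members above and below 1 FPKM held TATAAA at the same share, 45.5% each, while CCAAT stood in 90.9% of the former and 72.7% of the latter. By class, CCAAT stood in 100% of H2A and of H2B promoters, 80% of H3 and 25% of H4. Members above and below 1 FPKM differ in their mix of classes, so level and class cannot be told apart here. The windows of Hist1h2aa and its divergent neighbour Hist1h2ba share 220 bases. Windows of other divergent H2A and H2B neighbours overlap as well, such as those of Hist1h2ag and Hist1h2bj, and the Hist1h2bq and Hist1h2br windows are identical in sequence. Since motifs were sought on either strand, the member counts include some sequence more than once and are not counts of independent promoters. A match in these letters is a description of the sequence and not a bound site.

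After Med13-MO none of the 25 core histone genes at 1 FPKM or more passed the test in either direction. The test was limma on log2(FPKM + 1) over 11755 genes, with a Benjamini-Hochberg adjusted p below 0.05. Over all genes tested, 17.1% passed it: 9.29% were higher and 7.81% lower after Med13-MO. Without adjustment, 4 of the 25 members had a limma p below 0.05, against 32.4% of all genes. The groups of 4 libraries did not overlap for 0 of the 25 members, against 21.6% of all genes. The members' differences in log2(FPKM + 1), Med13-MO minus Scr-MO, ran from -0.77 to 0.54 with a median of 0.035, 14 above 0 and 11 below, and the median over all genes tested was -0.057. Adjusted limma p-values ran from 0.0685 to 0.983. The 95% interval of the difference lay within a 2-fold change of FPKM + 1 for 23 of the 25 members. The others were Hist1h2aa and Hist1h2bl. For members near 1 FPKM such an interval can hold larger changes in FPKM itself. In Hist2h2ab, a log2 difference of 0.41 on this scale went with a 1.74-fold ratio of mean FPKM. The absence of calls depended on how libraries were weighted. With a weight estimated for each library, limma called 4 members higher (Hist1h2bc, Hist1h2bh, Hist2h2ab and Hist2h3b) and 2 lower (Hist1h2aa and Hist1h2bl), in a fit that called 36.9% of all genes, 14.6% higher and 22.3% lower. Without Scr-MO 2, the library given the least weight, Hist1h2aa and Hist1h2bl were called lower, at adjusted p = 0.0331 and 0.0431 in limma, in a fit that called 11.5% of all genes lower. Leaving out Med13-MO 1 gave 1 higher call, Hist1h2bc, in a fit that called 6.65% of all genes higher, and leaving out Med13-MO 3 gave 1, Hist1h2bh, in a fit that called 6.4% higher.

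**Figure D1:**
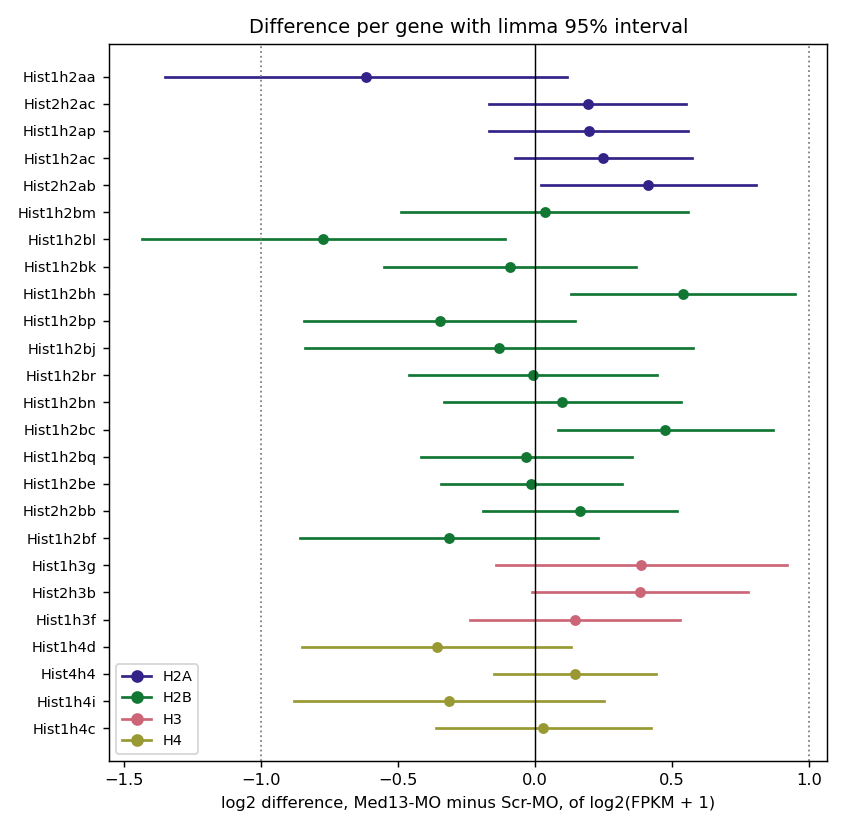
Difference in log2(FPKM + 1), Med13-MO minus Scr-MO, for the 25 core histone genes with a mean of at least 1 FPKM. Points are limma estimates and lines are 95% intervals, coloured by class. Dotted lines mark 2-fold changes of FPKM + 1, which can be larger changes in FPKM for low genes. Most intervals include 0, and those of Hist1h2bl and Hist1h2aa extend past the 2-fold line.

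The summed RNA of the 25 genes spread more among collections of a group than the group means differed. The sum was 79.8, 109, 143 and 156 FPKM in Scr-MO 1 to 4, and 118, 117, 82.7 and 116 FPKM in Med13-MO 1 to 4. The groups overlapped, with means of 122 ± 34.3 and 108 ± 17 FPKM (SD, n = 4 each) and a log2 ratio of -0.17. Scr-MO 1 was the lowest library for 10 members and Med13-MO 3 for 8, whereas Scr-MO 4 was the highest for 7 and Med13-MO 2 for 6. FPKM is relative to the library total, and in pooled embryos fewer cells holding the RNA and less of it per cell cannot be told apart. Hist1h4d and Hist1h2bm alone made up 40.8% to 51.3% of the sum in a library. No class stood apart by group in its own sum. H2A sums were 14.1 ± 6.05 FPKM in Scr-MO and 11.2 ± 1.45 in Med13-MO, and H2B sums were 63.9 ± 19.4 and 58.6 ± 11.1. H3 sums were 7.01 ± 2.68 and 9.41 ± 2.00 FPKM, and H4 sums were 36.8 ± 9.43 and 29.1 ± 6.77, with overlapping groups in every class.

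**Figure D2:**
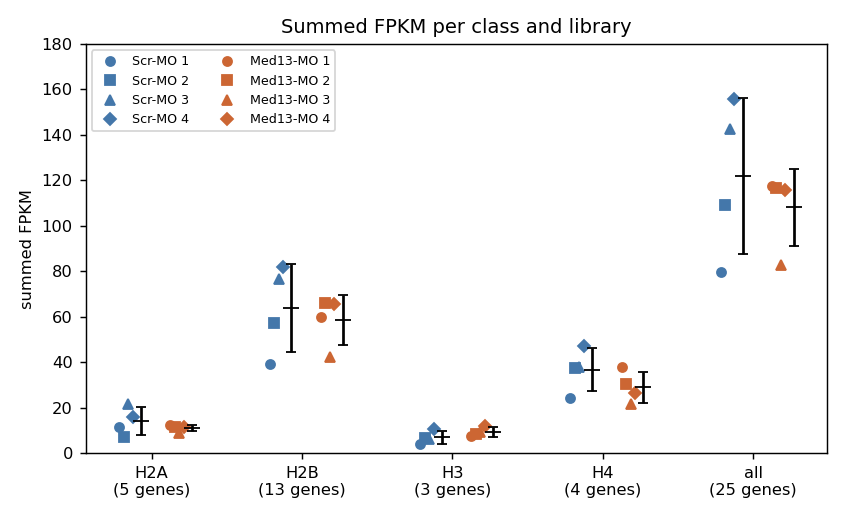
Summed FPKM of the core histone genes at 1 FPKM or more, by class and over all 25 genes, for each library (symbols); black bars give the group mean and SD (n = 4). Scr-MO and Med13-MO libraries overlap in every class, and Scr-MO 1 and Med13-MO 3 hold the lowest sums over all genes.

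The H4 proteins form the tetramer with H3 at the centre of the nucleosome, and 4 of the 13 H4 genes reached 1 FPKM. Hist1h4d had the highest mean of all members. Its levels were 21.7, 33.9, 33.4 and 41.9 FPKM in Scr-MO 1 to 4 and 34.6, 25.7, 18.8 and 21.9 FPKM in Med13-MO 1 to 4. Both groups spanned much of the same range, and Scr-MO 1 lay among the Med13-MO libraries. The difference in log2(FPKM + 1) was -0.36 ± 0.23 (SE), with an adjusted p of 0.293 in limma. The number of fragments behind these values is not known, because the length used for its FPKM was not the annotated one. Of the 50-base windows of the annotated Hist1h4d transcript, 10.2% occur in another gene. That share counts the 770 bases past the stem-loop, so the share within the mRNA up to the stem-loop may be higher. Hist4h4, the member on chromosome 6, had 1.30, 1.19, 1.37 and 1.74 FPKM in Scr-MO and 1.42, 1.84, 1.54 and 1.80 FPKM in Med13-MO, with an adjusted p of 0.489 in limma. Hist1h4i had 0.894, 0.720, 2.09 and 2.32 FPKM in Scr-MO and 0.546, 1.43, 0.395 and 1.67 FPKM in Med13-MO, with an adjusted p of 0.428 in limma. In Hist1h4i, Scr-MO 3 and 4 stood above the other 6 libraries. Hist1h4c, the remaining H4 gene at 1 FPKM or more, ranged from 0.437 to 1.62 FPKM.

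H3 carries much of the modified tail of the nucleosome, and 3 of the 12 H3 genes reached 1 FPKM, each with an estimate above 0. Hist1h3g had 2.42, 4.79, 4.53 and 7.72 FPKM in Scr-MO 1 to 4 and 5.92, 5.0, 6.64 and 7.81 FPKM in Med13-MO 1 to 4. Scr-MO 4 lay within the Med13-MO range and the other 3 Scr-MO libraries lay below it. The difference in log2(FPKM + 1) was 0.39 ± 0.24 (SE), with an adjusted p of 0.295 in limma. It was 0.15 without Scr-MO 1 and 0.60 without Scr-MO 4. Hist2h3b had 1.01, 1.00, 0.896 and 1.44 FPKM in Scr-MO and 0.949, 2.02, 1.60 and 2.49 FPKM in Med13-MO, with a difference of 0.38 ± 0.18 in log2(FPKM + 1) and an adjusted p of 0.167. Hist1h3f had 0.751, 1.03, 0.982 and 1.49 FPKM in Scr-MO and 0.780, 1.41, 1.07 and 1.95 FPKM in Med13-MO, with an adjusted p of 0.607 in limma. In both genes Med13-MO 1 lay low, among the Scr-MO libraries.

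H2B pairs with H2A to form the outer dimers of the nucleosome, and 13 of the 18 H2B genes reached 1 FPKM, more than in any other class. Hist1h2bm was the most abundant, with 14.0, 21.9, 27.4 and 32.3 FPKM in Scr-MO 1 to 4 and 25.7, 27.3, 17 and 25.2 FPKM in Med13-MO 1 to 4. The group means were nearly equal, and the Med13-MO values fell inside the Scr-MO range. Their difference in log2(FPKM + 1) was 0.035 ± 0.24 (SE), with an adjusted p of 0.936 in limma. Every 50-base window of the Hist1h2bm transcript occurs in another gene, and GENCODE M21 gives that transcript the symbol Hist1h2br, so its level cannot be assigned to 1 copy. In GENCODE M21 it also lies within the span of the rows listed as Hist1h2br, which is itself a member at 1 FPKM or more.

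Hist1h2bl showed the largest estimated difference among the 25. Its levels were 7.0, 6.68, 17.3 and 16.0 FPKM in Scr-MO 1 to 4 and 8.34, 6.20, 3.64 and 6.22 FPKM in Med13-MO 1 to 4. Scr-MO 3 and 4 were higher than every other library, and Scr-MO 1 and 2 lay among the Med13-MO values. On the log2(FPKM + 1) scale it differed by -0.77 ± 0.31 (SE), with an unadjusted p of 0.0257 and an adjusted p of 0.10 in limma. Hist1h2bl (chr13:21715763-21716143, minus strand, GRCm38) shares 82.8% of its windows with other genes. Hist1h2bk had 3.21, 3.86, 5.38 and 6.83 FPKM in Scr-MO and 4.56, 4.96, 3.01 and 4.94 FPKM in Med13-MO, with an adjusted p of 0.791 in limma. Hist1h2bf repeated the pattern of Hist1h2bl in its Scr-MO libraries: 0.835 and 0.883 FPKM in Scr-MO 1 and 2 against 2.46 and 3.14 FPKM in Scr-MO 3 and 4, with 0.795 to 1.52 FPKM in Med13-MO.

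The largest positive estimates were also in H2B. Hist1h2bh had 2.36, 2.94, 2.98 and 2.46 FPKM in Scr-MO 1 to 4 and 3.96, 5.57, 2.79 and 5.55 FPKM in Med13-MO 1 to 4. Only Med13-MO 3 fell within the Scr-MO range. Its difference in log2(FPKM + 1) was 0.54 ± 0.19 (SE), with an adjusted p of 0.0685 in limma. All windows of its annotated transcript occur in other genes, and GENCODE M21 names that transcript Hist1h2bq. The length used for the FPKM of Hist1h2bh was not the annotated one. Hist1h2bc had 0.992, 1.28, 1.88 and 1.88 FPKM in Scr-MO and 1.62, 3.02, 2.81 and 2.49 FPKM in Med13-MO. Here Med13-MO 1 lay inside the Scr-MO range and the other 3 lay above it, and the difference in log2(FPKM + 1) was 0.47 ± 0.18 (SE), with an adjusted p of 0.0900 in limma. Hist1h2bc (chr13:23684199-23692908, plus strand, GRCm38) shares 30.1% of the windows of its annotated transcript. The length used for its FPKM was not that of this transcript. Hist1h2be overlaps the linker histone gene Hist1h1e on the same strand, so its value (1.36 to 2.21 FPKM) may include fragments of that gene.

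Among the 20 H2A genes 5 reached 1 FPKM, and Hist1h2aa stood far above the others. Hist1h2aa encodes TH2A, a variant known from male germ cells, oocytes and early embryos, and it stands beside Hist1h2ba, which encodes its partner TH2B. Hist1h2aa (chr13:23934462-23934851, plus strand, GRCm38) had 7.72, 4.00, 18.0 and 11.4 FPKM in Scr-MO 1 to 4 and 7.70, 5.67, 3.55 and 6.0 FPKM in Med13-MO 1 to 4. As for Hist1h2bl, Scr-MO 3 and 4 exceeded every other library. Scr-MO 1 lay beside Med13-MO 1, the highest of its group, and Scr-MO 2 lay among the Med13-MO values. The difference in log2(FPKM + 1) was -0.62 ± 0.34 (SE), with an adjusted p of 0.229 in limma. It was -0.31 without Scr-MO 3 and -0.95 without Scr-MO 2. The share of its windows found in another gene is 2.35%, so fragments of other copies have little common sequence with it. Hist1h2ba was low, at 0.415, 0.878, 0.488 and 0.155 FPKM in Scr-MO and 0.103, 0.423, 0.166 and 0.228 FPKM in Med13-MO. The pair thus differed in level within every library.

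The other 4 H2A genes at 1 FPKM or more had estimates above 0. Hist2h2ac had 1.30, 1.01, 1.42 and 1.40 FPKM in Scr-MO and 1.27, 2.21, 1.99 and 1.09 FPKM in Med13-MO, with an adjusted p of 0.450 in limma. Hist1h2ap had 0.936, 0.603, 0.864 and 1.55 FPKM in Scr-MO and 0.961, 1.19, 1.16 and 1.72 FPKM in Med13-MO, with an adjusted p of 0.449 in limma. In both the groups overlapped. Hist2h2ab (chr3:96219865-96220308, plus strand, GRCm38) had 1.02, 1.13, 0.281 and 0.504 FPKM in Scr-MO and 0.865, 1.49, 1.47 and 1.26 FPKM in Med13-MO. Its low libraries were Scr-MO 3 and 4, the libraries in which Hist1h2aa and Hist1h2bl were high. The difference in log2(FPKM + 1) was 0.41 ± 0.18 (SE), with an adjusted p of 0.136 in limma. Hist2h2ab overlaps Gm15444 on the opposite strand, and whether counting used strand is not given in the sources used. Hist2h2ab, at a mean of 1.00 FPKM, and Hist1h2ac, at 1.07 FPKM, lay just above the threshold, and Hist1h2bg, at 0.964 FPKM, and Hist1h3h, at 0.952 FPKM, lay just below it.

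**Figure D3:**
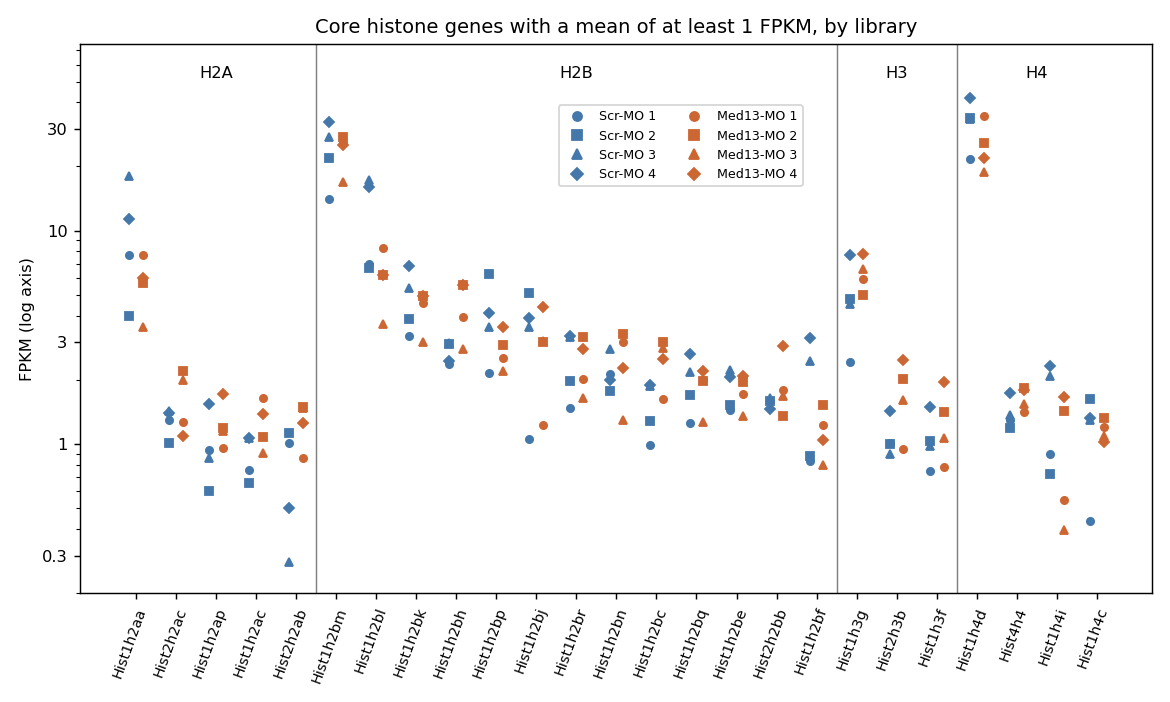
FPKM on a log axis of the 25 core histone genes with a mean of at least 1 FPKM, by class, in each of the 8 libraries (blue symbols, Scr-MO; orange symbols, Med13-MO). Hist1h4d and Hist1h2bm lead, and in Hist1h2aa, Hist1h2bl, Hist1h2bf and Hist1h4i the Scr-MO 3 and Scr-MO 4 libraries lie above the other 6.

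The remaining 38 members had means below 1 FPKM. They ranged from 0.0564 FPKM for Hist3h2a, a gene outside the large clusters, to 0.964 FPKM for Hist1h2bg. The groups did not overlap for 2 of them, Hist2h3c1 and Hist3h2ba, named here after their values were seen, against 6.45% of the 23221 genes below 1 FPKM. Hist2h3c1 had 0.306, 0.562, 0.343 and 0.532 FPKM in Scr-MO and 0.640, 0.707, 0.911 and 0.805 FPKM in Med13-MO. Hist3h2ba had 0.0864, 0, 0.0678 and 0.0486 FPKM in Scr-MO and 0.172, 0.142, 0.285 and 0.374 FPKM in Med13-MO. Both had all Med13-MO libraries above all Scr-MO libraries. In a limma fit without a filter on low values their adjusted p-values were 0.198 and 0.0798, and 0 of the 63 members were called, against 2.89% of the 34976 genes in that fit; 5 members had an unadjusted p below 0.05, against 17.5%. For comparison, 877 olfactory receptor genes, a family chosen after the data were seen and known from sensory neurons, had a median mean level of 0.0109 FPKM and a 99th percentile of 0.656 FPKM.

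Shared sequence limits which copy a level belongs to. Of the 50-base windows, 50% or more occurred in other genes for 14 of the 25 members at 1 FPKM or more. In H4 this held for 0 of 4 genes and in H2B for 11 of 13. The 11 include Hist2h2bb, with 53.6% of windows in genes that are not members and 0% in other members. That gene overlaps Gm42743 on the same strand. The shares describe GENCODE M21 transcripts, and for some members, such as Hist1h2bh and Hist1h3g, another length was used for FPKM. How the authors' counting treated fragments that match several copies was not stated in the sources used. Of the member rows, 3 carry another symbol in GENCODE M21 than in the table, those listed as Hist1h2bh, Hist1h2bm and 1 of the rows of Hist2h2bb. By GENCODE M21 coordinates the Hist1h2bm row lies within Hist1h2br and the Hist1h2bh row within Hist1h2bq, and all of these are among the 25. The counts of H2B genes and the H2B and overall sums may therefore hold the same locus more than once.

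**Figure D4:**
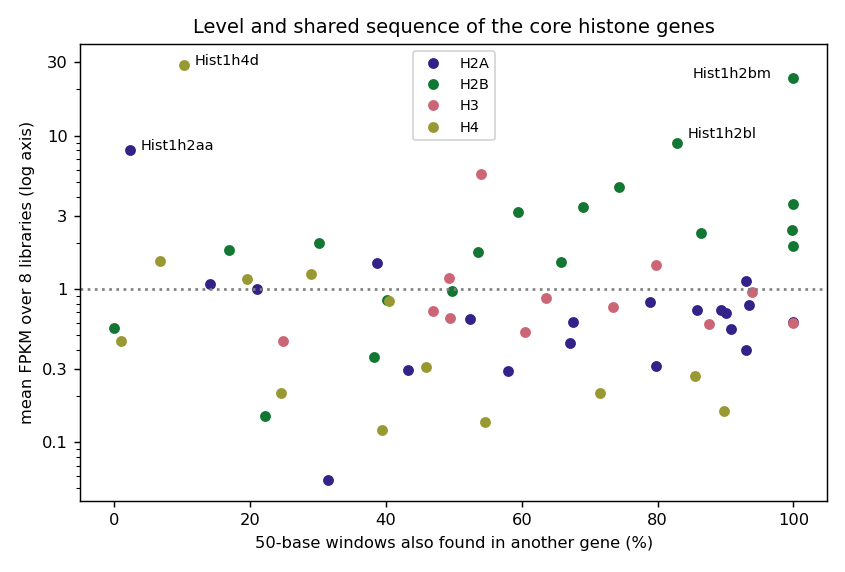
Mean FPKM over 8 libraries (log axis) of the 63 core histone genes against the percentage of 50-base windows of the main transcript that occur in another gene, coloured by class; the dotted line marks 1 FPKM. Hist1h4d and Hist1h2aa are abundant with little shared sequence over the annotated transcript, which for Hist1h4d runs past the stem-loop, while Hist1h2bm and Hist1h2bl are abundant and largely shared.

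Of the genes that make, process or read histone RNA, few passed the test. Over 3 lists, for transcription, 3′ end processing, and translation and decay of histone RNA, 39 of 44 listed symbols were tested, 2 rose (E2f2 and Ctif) and 2 fell (Slbp and Yy1). That is 10.3% of those tested, against 17.1% of all genes, and the median difference in log2(FPKM + 1) was -0.11, with 14 above 0 and 25 below.

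Slbp, whose protein binds the histone stem-loop, fell. It had 87.1, 95, 74.2 and 79.4 FPKM in Scr-MO 1 to 4 and 63.0, 45.6, 46.8 and 49.3 FPKM in Med13-MO 1 to 4. All Med13-MO libraries lay below all Scr-MO libraries. The group means were 83.9 ± 9.11 and 51.2 ± 8.04 FPKM (SD, n = 4), the difference in log2(FPKM + 1) was -0.71 ± 0.16 (SE), and the adjusted p was 0.0130 in limma. Without Med13-MO 2 the adjusted p was 0.0530. Slbp was the only call among the 15 processing genes tested of 18 listed, which had a median difference of -0.11.

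The partners of SLBP at the cleavage step did not pass the test, but several did under other settings. Casp8ap2, which encodes FLASH, a bridge between the U7 snRNP and the cleavage factors, had 69.8, 65.1, 66.6 and 59.9 FPKM in Scr-MO and 54.4, 46.0, 52.1 and 57.1 FPKM in Med13-MO. The groups did not overlap, and the adjusted p was 0.154 in limma, or 0.0259 with library weights. Lsm10, a ring protein particular to the U7 snRNP, had 2.30, 0.971, 2.44 and 3.37 FPKM in Scr-MO and 4.42, 3.43, 3.58 and 3.99 FPKM in Med13-MO. These groups too did not overlap, and Lsm10 had an adjusted p of 0.0656 in limma. Lsm10 was called higher after median-ratio scaling (0.0356), after quantile normalization (0.0379), with its main transcript only (0.0471) and without Scr-MO 4 (0.0323), by limma adjusted p. Cpsf3, the endonuclease that makes the cut, had 3.14, 1.80, 3.0 and 3.02 FPKM in Scr-MO and 1.43, 1.63, 2.31 and 1.74 FPKM in Med13-MO, with an adjusted p of 0.103 in limma. Cpsf3 was called lower with library weights and without Scr-MO 2, at limma adjusted p = 0.0126 and 0.0227. Lsm11, the second ring protein of the U7 snRNP, and Zfp473, which encodes a U7 snRNP-associated zinc finger protein, had means of 0.460 and 0.941 FPKM and were not tested.

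Among the 12 genes of histone gene transcription, all tested, E2f2 rose and Yy1 fell, and the median difference was -0.14. Npat, the coactivator of histone clusters that cyclin E and CDK2 phosphorylate, had 12.1, 9.70, 17 and 21.3 FPKM in Scr-MO and 8.19, 9.23, 8.96 and 11.0 FPKM in Med13-MO. The groups overlapped through Scr-MO 2 and Med13-MO 4, the difference in log2(FPKM + 1) was -0.58 ± 0.22 (SE), and the adjusted p was 0.0852 in limma. Npat was called lower with library weights and without Scr-MO 2, at limma adjusted p = 0.00270 and 0.0218. Yy1, a zinc finger factor with binding sites reported in histone genes, had 65.8, 111, 45.6 and 32.3 FPKM in Scr-MO and 28.5, 23.2, 23.1 and 21.6 FPKM in Med13-MO. The Scr-MO libraries spread widely but all lay above Med13-MO, with a difference of -1.22 ± 0.30 (SE) in log2(FPKM + 1) and an adjusted p of 0.0164 in limma, or 0.0813 without the filter on low values. E2f2, an E2F factor of the S phase programme, had 2.93, 2.01, 2.40 and 2.16 FPKM in Scr-MO and 5.55, 4.22, 4.45 and 4.57 FPKM in Med13-MO. Its groups were well apart, with a difference of 0.76 ± 0.15 (SE) in log2(FPKM + 1) and an adjusted p of 0.00599 in limma.

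For translation and decay of histone RNA, 12 of 14 listed symbols were tested, 1 rose and 0 fell, with a median difference of -0.08. The list gives Tut4 and Tut7 also under their older symbols, Zcchc11 and Zcchc6, and both genes were tested under the older ones. Ctif, a translation factor that works with SLBP on cap-bound histone mRNA, had 0.677, 0.281, 0.759 and 1.00 FPKM in Scr-MO and 1.63, 1.19, 1.07 and 1.71 FPKM in Med13-MO. The groups did not overlap, and Ctif rose by 0.52 ± 0.16 (SE) in log2(FPKM + 1) with an adjusted p of 0.0461 in limma. The call of Ctif was lost in 11 of the 17 alternative fits that gave it a value. Of 14 S phase genes, such as Pcna and Rrm2, all were tested, 0 were called by limma (17.1% of all genes) and 2 had an unadjusted p below 0.05 (32.4% of all genes), with a median difference of -0.14.

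**Figure D5:**
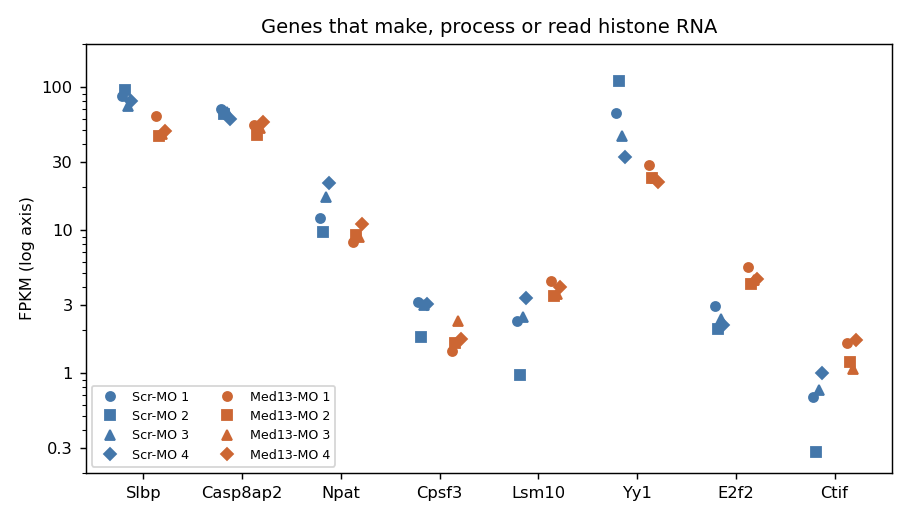
FPKM on a log axis of 8 genes that make, process or read histone RNA in each library (blue symbols, Scr-MO; orange symbols, Med13-MO). Slbp and Yy1 lie lower and E2f2 and Ctif higher in all Med13-MO libraries, while Npat and Cpsf3 overlap between the groups.

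The amplification kit named in the labels primes along the RNA as well as at poly(A) tails, and RNAs without a tail were present. In a list of 10 such RNAs, 2 reached 1 FPKM in the rows used. Malat1, a nuclear RNA with a processed 3′ end, fell from 40.1 ± 10.04 to 11.1 ± 3.52 FPKM (SD, n = 4; adjusted p = 0.000521 in limma). Rn7sk, the small nuclear RNA that holds P-TEFb inactive, had 45.6 ± 19.5 and 28.4 ± 10.1 FPKM, with an adjusted p of 0.202 in limma.

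The library totals read back from the values were 31378977 to 48050262 fragments. Med13 mRNA did not separate the groups, at 38.2 to 47.5 FPKM in Scr-MO and 39.4 to 43.9 FPKM in Med13-MO, with an adjusted p of 0.892 in limma. All 8 of 8 2-cell markers and 8 of 8 oocyte markers reached 1 FPKM, while 0 of 8 cumulus and granulosa markers did. Summed 2-cell markers were 79.1 to 137 FPKM in Scr-MO and 158 to 307 FPKM in Med13-MO, and summed oocyte markers were 564 to 698 and 785 to 1020 FPKM. Sperm markers summed to 5.55 to 12.5 FPKM in Scr-MO and 12.4 to 18.5 FPKM in Med13-MO, with 1 of 5, Odf2, at 1 FPKM or more. Of 6 morula and blastocyst markers 3 reached 1 FPKM, and their sum was 26.1 to 38.6 FPKM in Scr-MO and 13.5 to 19.5 FPKM in Med13-MO. Blood and immune markers summed to 1.14 to 3.23 and 1.32 to 2.05 FPKM, with 1 of 4 at 1 FPKM, and oviduct markers to 4.48 to 8.05 and 3.42 to 4.84 FPKM, with 1 of 5. The rows used held 5 of the 7 listed sperm markers and 4 of the 6 listed blood and immune markers. Every gene in the rows used was above 0 in at least 1 library, so no marker counted here could be at 0 throughout. The part of the shifts in summed markers in the results for Slbp, Yy1, E2f2 and Ctif was not tested.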

How the data were processed

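Total RNA from 8 collections of 40 embryos was amplified (Ovation RNA-Seq System V2) and built into TruSeq libraries from 400 ng of cDNA, per the labels. The authors deposited FPKM per transcript. BWA and the mm10 build are named per the submitters' processing notes; the counting tool, strand setting and treatment of fragments with several matches were not stated in the sources used. In 3758 rows with a hyphen in the symbol the values stand 1 column to the right, and these rows were left out; 0 columns were unmatched. FPKM was summed per symbol, genes with a mean of at least 1 FPKM were kept, and log2(FPKM + 1) was tested with limma 3.58.1 in R 4.3.3 (mean-variance trend, two-sided, Benjamini-Hochberg over 11755 genes, threshold 0.05). This scale understates changes of low genes, and all FPKM values are relative to the library total. Low values were multiples of 0.5 fragments in 94.3% to 94.5% of cases (tolerance 0.005), which gave the library totals. The amplified reads carry no molecular identifiers, so fragment numbers cover counting error only. Replicates were independent collections, per the labels.

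Members and gene lists were chosen with earlier results of these data known. Members named are the 3 most abundant of each class, the 5 with the largest differences, the 2 nearest to 1 FPKM on each side and the germ cell variants; pathway genes named are the core factors and all called genes. Hist1h2bf, Hist1h2be and Hist1h4c were added after their values were seen. Of exonic bases, Slbp shares 7.8% with Gm10459, Ctif 10.7% with Gm10532 and Cpsf3 3.71% with Itgb1bp1. Alternatives were other pseudocounts, filters, scalings, library weights, 1 transcript per gene, realigned rows, a block on consecutive library numbers and each library left out. Scripts (Python 3.11.15) were tested on simulated data.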

Additional observations from a re-analysis of the deposited data

Results flagged for a closer look

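Among the 70 groups of 4 libraries examined, 2 held a library far from the other 3 by Dixon's ratio (the gap to the nearest library over the group's range) above its 95% critical value; chance flags about 1 group in 20. The summed FPKM of the 25 core histone genes at 1 FPKM or more reached a ratio of 0.945 in Med13-MO, with Med13-MO 3 at 82.7 FPKM and the other libraries at 116 to 118 FPKM. Med13-MO 3 also had the smallest library total, 31378977 fragments. Cpsf3 reached 0.895 in Scr-MO, with Scr-MO 2 at 1.80 FPKM and the other libraries at 3.0 to 3.14 FPKM.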

How the results depend on the processing

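The titles number control and Med13-MO libraries alternately, without saying that neighbours share a collection. Deviations of such neighbours correlated at 0.00851 to 0.378, and 3 of 4 Scr-MO libraries correlated best with their neighbour, so the pairing is a hint only. A replicate block on these 4 pairs, added after the data were seen, called 2 members higher (Hist1h2bc and Hist1h2bh) and 0 lower, against 11.8% and 10.5% of all genes, and 3 pathway genes each way (Lsm10 and Npat were added). Of the members, 0 rose and 0 fell; library weights gave 4 and 2, with Scr-MO 2 weighted least (0.280) and Med13-MO 2 most (3.05), and leaving out 1 library gave 0 to 1 that rose and 0 to 2 that fell (2 without Scr-MO 2). Pathway genes that rose numbered 2, but 1 at a pseudocount of 0.1, without a filter on low values or without the variance trend, 0 at a mean of at least 5 FPKM, 4 after median-ratio scaling and 1 to 3 with 1 library left out. Pathway genes that fell numbered 2 of 39 tested, but 1 without a filter (Yy1 adjusted p = 0.0813 in limma) and 9 with library weights. With 1 library left out, 1 to 6 fell (6 without Scr-MO 2, 1 without Med13-MO 2). Of all genes, 22.3% were called lower with library weights and 11.5% without Scr-MO 2. For median-ratio scaling the share of all genes called is not given here. The members' median log2 difference moved from 0.035 to -0.36 at a mean of at least 5 FPKM, where 5 members remained, and ran from -0.077 to 0.12 with 1 library left out. The H2A log2 ratio of sums moved from -0.34 to -0.84 at that filter, which leaves 1 gene. With 1 library left out, the log2 ratio of sums ran from -0.33 to -0.030 over all members, -0.56 to -0.065 for H2A, -0.30 to 0.018 for H2B, 0.24 to 0.70 for H3 and -0.49 to -0.19 for H4. Library weights and the trend do not apply to sums. Hist1h2bm changed sign with library weights (-0.099) and without Scr-MO 1, Med13-MO 1 or Med13-MO 2 (range with 1 library left out -0.19 to 0.20), and Hist1h2bk without Scr-MO 4 or Med13-MO 3 (range -0.23 to 0.064). Of 435 values for 25 named genes, 393 kept direction and side of the threshold. Where not stated, the cause was not tested.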
